A study of Homo sapiens with 21 samples.

Results

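SWI/SNF subunits and other ATP-dependent chromatin remodelers were followed through the silencing of ARID1A and ARID1B in SK-N-BE(2), an established human neuroblastoma cell line. The 50 genes were taken by symbol from the 60728 gene identifiers in the deposited expression table. They comprise 28 SWI/SNF subunits and 22 further genes of the ISWI, CHD and INO80 families and of other SNF2 ATPases, and all 50 passed the filter on low reads. Polyadenylated RNA was sequenced 72 h after lentiviral transduction, in 21 libraries of 7 conditions with 3 libraries each. The control cells carried a non-silencing short hairpin RNA (shRNA), and the other conditions are labelled shARID1A.2 and shARID1A.4, shARID1B.2 and shARID1B.3, and shARID1A/B.2.3 and shARID1A/B.4.2. An shRNA lowers the transcript it is directed against, and all conditions were made in 1 cell line. The series describes its triplicates as biological, without saying whether they came from separate cultures or transductions, so the p-values measure the spread between these libraries, which may be technical in part.

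SWI/SNF remodelers use the energy of ATP to move or evict nucleosomes. They are built from a shared core and an ATPase module, and carry subunits that define the BAF, PBAF and ncBAF forms: ARID1A or ARID1B with a DPF protein in BAF, ARID2 with PBRM1, BRD7 and PHF10 in PBAF, and BRD9 with BICRA or BICRAL in ncBAF. Many positions can be filled by either of several paralogs, closely related proteins that exclude each other from a single complex, so the loss of a subunit raises the question whether its paralog is made in larger amounts. The ISWI, CHD and INO80 families slide, space or exchange nucleosomes with other ATPases.

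All 8 sympathoadrenergic markers of neuroblastoma cells were read in every library, among them PHOX2A at 7228 to 11075, GATA3 at 7302 to 11433 and DBH at 107 to 1190 normalised reads. Among markers of other cell types, the T-cell gene CD3E was at 0 to 8.5, the liver gene ALB at 0 to 13.0 and the epithelial gene EPCAM at 58.4 to 227. Each value is the number of reads on a gene divided by the size factor of its library, and libraries held 27954334 to 41077638 reads. Differences between conditions are log2 fold changes of the value plus 1, with the standard error (SE) from limma and p-values adjusted over 18584 genes. A gene is called where its adjusted p-value is under 0.05, and a second count asks also for a 1.5-fold change.

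ARID1A and ARID1B were examined first, since they check the labels (ARID1A at chr1:26693236-26782110 and ARID1B at chr6:156776020-157210779 of GRCh38). ARID1A had 6097, 6374 and 6463 normalised reads in the control libraries. In the libraries labelled shARID1A it had 2169, 2160 and 2109 (shARID1A.2) and 2289, 2157 and 2284 (shARID1A.4). In those labelled shARID1B it had 1962, 1882 and 1916 (shARID1B.2) and 2507, 2480 and 2450 (shARID1B.3). ARID1A was thus far below the control in the 12 libraries of these 4 conditions. In the libraries labelled shARID1A/B it stayed near the control, with 5510, 5752 and 5714 (shARID1A/B.2.3) and 5589, 5352 and 5379 (shARID1A/B.4.2), although all 6 values were below the lowest control.

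ARID1B had 5793, 5804 and 5791 normalised reads in the control libraries. It had 2252, 2249 and 2224 in shARID1A.2 and 3065, 3110 and 3126 in shARID1A.4. The libraries labelled shARID1A/B held 2540, 2651 and 2607 (shARID1A/B.2.3) and 1886, 1881 and 1955 (shARID1A/B.4.2). In the libraries labelled shARID1B, where ARID1B would be the target, it kept 5056, 4913 and 5043 reads (shARID1B.2) and 6182, 6038 and 6053 (shARID1B.3). Both transcripts were therefore low in the libraries labelled shARID1A, ARID1A alone was low in those labelled shARID1B, and ARID1B alone was low in those labelled shARID1A/B. Each condition is named below by its label, and a direction drawn from it refers to the libraries so labelled.

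**Figure D1:**
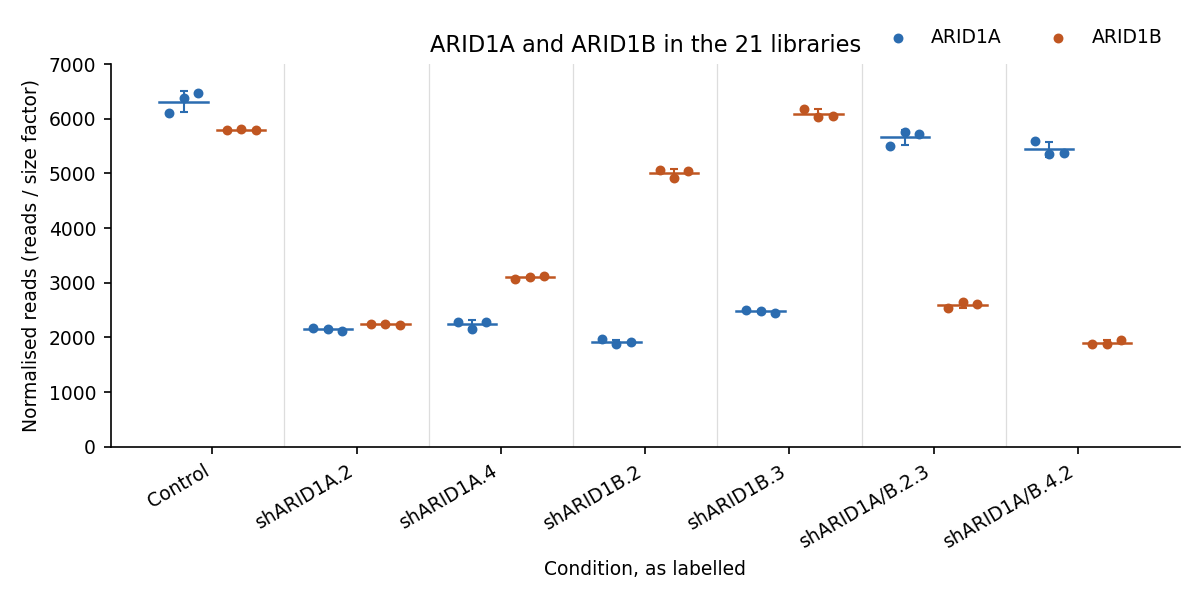
ARID1A and ARID1B in normalised reads (vertical axis, linear from 0) in each of the 21 libraries, by labelled condition. Points are libraries, horizontal lines are means and bars are 1 SD (n = 3). Both genes are low in the libraries labelled shARID1A, ARID1A in those labelled shARID1B and ARID1B in those labelled shARID1A/B.

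Expressed as log2 fold changes, ARID1A was at -1.56 in shARID1A.2, -1.49 in shARID1A.4, -1.72 in shARID1B.2 and -1.35 in shARID1B.3 (SE 0.029 each, with the largest adjusted p at 4.4e-22). It was -0.16 in shARID1A/B.2.3 (adjusted p = 3.4e-05) and -0.21 in shARID1A/B.4.2 (adjusted p = 4.0e-07). For ARID1B it was -1.37 in shARID1A.2 and -0.90 in shARID1A.4, and -1.16 in shARID1A/B.2.3 and -1.60 in shARID1A/B.4.2 (SE 0.023 each, with the largest adjusted p at 4.0e-21). With ARID1A alone low, ARID1B differed in direction between the conditions. It was lower in shARID1B.2, at -0.21 (95% interval -0.26 to -0.16, adjusted p = 1.4e-08), and slightly higher in shARID1B.3, at 0.07 (0.02 to 0.12, adjusted p = 0.0090), and these 2 values differed from each other (adjusted p = 6.5e-11). No rise of either paralog by 1.5-fold accompanied the loss of the other in any of the 4 conditions with a single low gene.

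Per kilobase of exon sequence (the union of a gene's exons), ARID1A made up 74.7% to 75.8% of the summed ARID1A and ARID1B level in the control libraries. Under the label shARID1B its share was 51.6% to 53.5%, and under shARID1A/B it was 85.9% to 89.3%. The summed level was 35.2% of the control mean in shARID1A.2 and 40% in shARID1A.4, 44.2% in shARID1B.2 and 55.5% in shARID1B.3, and 78.6% in shARID1A/B.2.3 and 73.0% in shARID1A/B.4.2. The exons of ARID1B together are much longer than its longest transcript (44677 against 10813 bases). With the longest transcript as the length, the share of ARID1A was 57.0% to 58.4% in the control and 32.4% to 34.1% under the label shARID1B. The summed level was then 36.0% of the control mean in shARID1A.2, 43.1% in shARID1A.4, 54.0% in shARID1B.2 and 67.0% in shARID1B.3. It was 70.8% in shARID1A/B.2.3 and 63.7% in shARID1A/B.4.2, so the order of the single-gene conditions depends on the length used.

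Most of the 50 genes were called in each condition, as were most genes of the transcriptome. In shARID1A.2, 42 members were called (84.0%, beside 76.1% of all genes tested), 13 of them higher and 29 lower (37.9% and 38.2% of all genes). In shARID1A.4 the number was 40 (80%, beside 73.6%), with 12 higher and 28 lower (beside 37% and 36.6%). The libraries labelled shARID1B gave 38 calls in each condition (76.0%, beside 65.6% in shARID1B.2 and 63.9% in shARID1B.3). Of these, 16 were higher and 22 lower in shARID1B.2 (beside 31.6% and 34%), and 17 were higher and 21 lower in shARID1B.3 (beside 31.9% and 32%). In shARID1A/B.2.3, 42 members were called (84.0%, beside 69.2%), with 15 higher and 27 lower (beside 35.2% and 34%). In shARID1A/B.4.2, 40 were called (80%, beside 71.2%), with 9 higher and 31 lower (beside 35.1% and 36.1%).

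The share of members past a 1.5-fold change stood below that of all genes in each of the 6 conditions, which is a description without a test. At least 1.5-fold was reached by 14 members in shARID1A.2 (28%, beside 42% of all genes), 13 in shARID1A.4 (26.0%, beside 38.8%), 7 in shARID1B.2 (14%, beside 25.5%) and 4 in shARID1B.3 (8.0%, beside 24.5%). In shARID1A/B.2.3 the number was 10 (20.0%, beside 32.7%) and in shARID1A/B.4.2 it was 11 (22.0%, beside 34.9%). The median log2 fold change of the members lay between -0.19 (shARID1A/B.4.2) and -0.01 (shARID1B.3), and that of all genes between 0.01 and 0.02. With libraries scaled to their total reads, the members called were 20 higher and 21 lower in shARID1A.2 and 28 and 13 in shARID1B.2. They were 19 and 17 in shARID1B.3 and 20 and 19 in shARID1A/B.4.2. With the upper quartile they were 20 and 20, 26 and 14, 23 and 13, and 17 and 20, so these counts depend on the scaling. All genes moved with it, and by total reads 61.2%, 63%, 53.2% and 64.8% of all called genes were higher in these conditions. The median log2 fold change of the members was then -0.008, 0.119, 0.021 and 0.002, beside 0.187, 0.145, 0.037 and 0.200 for all genes. Over the 6 conditions, 28 members reached a 1.5-fold change at least once and 22 never did. The genes called lower in all 6 were ARID1A, DPF1, PBRM1, CHD1, CHD4 and CHD9, and BICRA was called higher in all 6. Such patterns over the 6 conditions were not counted for all genes, so they describe the members without setting them apart. The calls of CHD4 and CHD9 in shARID1B.3, the smallest of their values, were lost when single libraries were left out, for CHD9 control library 1 or library 2 of that condition (-0.08 each) and for CHD4 any of 9 libraries, each control library among them (-0.05 to -0.04).

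**Figure D2:**
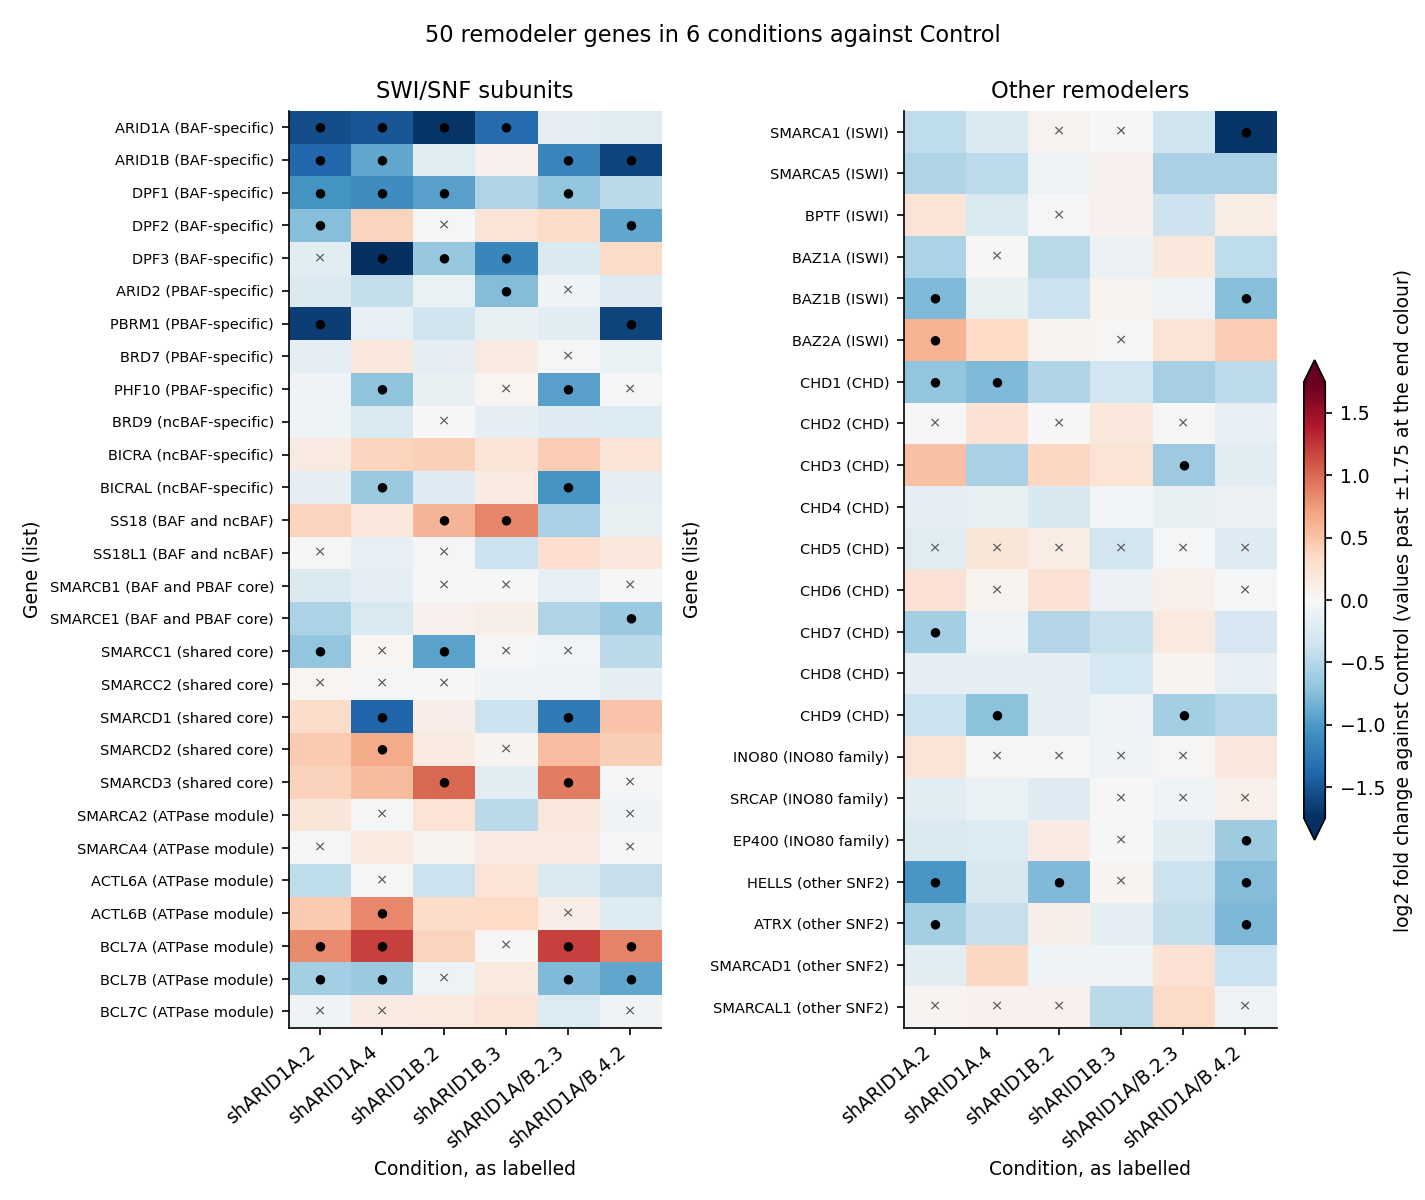
Log2 fold change against the control of 28 SWI/SNF subunits (left) and 22 other remodelers (right) in 6 labelled conditions (columns), with red for higher and blue for lower values. A dot marks an adjusted p-value under 0.05 with at least a 1.5-fold change, a cross an adjusted p-value of 0.05 or more, and an empty cell a call under 1.5-fold. The columns of shARID1B.2 and shARID1B.3 hold 7 and 4 dots, and the column of shARID1A.2 holds 14.

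Because 2 conditions share each label but carry different shRNAs, the 6 libraries of a label were also fitted as 1 group, which counts the difference between the shRNAs as spread. Then 17 members were called in the libraries labelled shARID1A (beside 35% of all genes), 8 in those labelled shARID1B (beside 15%) and 17 in those labelled shARID1A/B (beside 24.2%). Members called under this stricter view in both labels with a low ARID1B included BCL7A, SMARCD2, BAZ2A and BICRA, which were higher, and ARID1B, DPF1, BCL7B, SMARCE1, SMARCA5, CHD1, CHD9 and ATRX, which were lower. In the libraries labelled shARID1B, BICRA and SS18 were higher and ARID1A, DPF1, ARID2, CHD1, CHD7 and CHD8 were lower. Those called for shARID1A and not for shARID1A/B were ACTL6B, which was higher, and ARID1A, DPF3, SMARCB1 and HELLS, which were lower. Those called for shARID1A/B and not for shARID1A were BRD9, BICRAL, SS18, SMARCA1 and EP400, all lower. Any other call given below against the control rests on the fit of 7 conditions, and was not made with the libraries of its label as 1 group.

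Among the BAF-specific subunits, DPF1 was lower in every silenced library. The DPF proteins bind modified histone tails through paired PHD fingers, and DPF1 is the form of neurons. DPF1 had 540, 535 and 557 normalised reads in the control, 266, 266 and 259 in shARID1A.2, and 249, 271 and 247 in shARID1A.4. It had 291, 264 and 292 in shARID1B.2, 363, 374 and 395 in shARID1B.3, 300, 336 and 376 in shARID1A/B.2.3, and 389, 394 and 393 in shARID1A/B.4.2. The highest silenced library thus lay well below the lowest control library. On the log2 scale it changed by -1.04 and -1.09 with both genes low, -0.94 and -0.53 with ARID1A low, and -0.70 and -0.47 with ARID1B low (SE 0.068, all called). Comparing labels directly, DPF1 was higher in shARID1A/B than in shARID1A by 0.48 (SE 0.048, adjusted p = 5.3e-09, and 0.0035 with 4 groups).

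DPF3, the form known from heart and skeletal muscle, was the member with the widest range. It had 422, 340 and 368 normalised reads in the control and 103, 78.5 and 84.8 in shARID1A.4, with a log2 fold change of -2.08 (SE 0.091, adjusted p = 2.4e-16). In shARID1A.2 it had 327, 329 and 337, just below the lowest control and without a call (-0.18, adjusted p = 0.077). With ARID1A alone low, it had 246, 245 and 221 in shARID1B.2 and 160, 162 and 188 in shARID1B.3, with log2 fold changes of -0.66 and -1.14. With ARID1B alone low it had 312, 329 and 301 in shARID1A/B.2.3, a change of -0.26 that was not called without control library 1 (-0.17) or without library 3 of that condition (-0.23), and 484, 480 and 461 in shARID1A/B.4.2, above all control libraries (log2 fold change 0.34, adjusted p = 0.0020).

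DPF2, the most abundant of the family per length and the form found in most tissues, moved in opposite directions within a label. It had 2927, 3015 and 2889 normalised reads in the control. It was low in shARID1A.2 (1750, 1753 and 1780) and in shARID1A/B.4.2 (1580, 1611 and 1526). It was high in shARID1A.4 (3849, 3923 and 3809) and in shARID1A/B.2.3 (3549, 3789 and 3835), with no overlap with the control in any of the 4 conditions. DPF2 changed by -0.74, -0.90, 0.39 and 0.34 on the log2 scale in that order (SE 0.031). In shARID1B.2 it had 2859, 2879 and 2916, and in shARID1B.3 3304, 3550 and 3502, with log2 fold changes of -0.03 (adjusted p = 0.43) and 0.23. The DPF2 share of the family per length was 68.6% to 70.8% in the control, 88.2% to 88.6% in shARID1A.4, where DPF3 was lowest, and 57.1% to 57.9% in shARID1A/B.4.2. The summed level of the family was 60.3% of the control mean in shARID1A.2 and 64.5% in shARID1A/B.4.2. It was 103.1% in shARID1A.4, 85.0% in shARID1B.2, 100.2% in shARID1B.3 and 108.9% in shARID1A/B.2.3.

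Of the PBAF-specific subunits, none rose by 1.5-fold in any condition. ARID2, which takes the place of ARID1A or ARID1B in PBAF, was lower in 5 of 6 conditions, from -0.12 in shARID1B.2 to -0.76 in shARID1B.3. In shARID1B.3 it had 2372, 2240 and 2387 normalised reads beside 4114, 3964 and 3770 in the control. The remaining condition, shARID1A/B.2.3, gave -0.07 (adjusted p = 0.052). BRD7, a bromodomain subunit, stayed within -0.17 and 0.19 in all 6 conditions.

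PBRM1, the polybromo subunit that reads acetylated histones in PBAF, was sharply lower in 2 conditions that do not share a label. It had 3779, 3808 and 3673 normalised reads in the control, and 1168, 1256 and 1173 in shARID1A.2. It had 1241, 1250 and 1172 in shARID1A/B.4.2, so these 6 libraries lay together at about the same level. In shARID1A.4 it had 3410, 3321 and 3483, in shARID1A/B.2.3 3328, 3327 and 3290, in shARID1B.2 3026, 2851 and 2950, and in shARID1B.3 3453, 3426 and 3453. The log2 fold change was -1.65 in shARID1A.2 and -1.62 in shARID1A/B.4.2 (SE 0.031), and between -0.35 and -0.12 in the other 4 conditions. The pair with low values differed by -0.03 (95% interval -0.09 to 0.04, adjusted p = 0.51), whereas shARID1A.2 lay below shARID1A.4 by 1.51 (adjusted p = 6.1e-23). With the libraries of a label as 1 group, PBRM1 was not called in any label (adjusted p = 0.10 for shARID1A, 0.77 for shARID1B and 0.13 for shARID1A/B).

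PHF10, a PHD-finger subunit of PBAF, showed the reverse pair. It had 4288, 4248 and 4344 normalised reads in the control, 2606, 2560 and 2779 in shARID1A.4 and 2207, 2313 and 2137 in shARID1A/B.2.3. The other 4 conditions held 3888 to 4500 reads and changed by -0.13 to 0.03 on the log2 scale, with signs that turned under other scalings for shARID1A.2 (-0.08) and shARID1B.2 (-0.13). The log2 fold change of PHF10 was -0.70 in shARID1A.4 and -0.95 in shARID1A/B.2.3 (SE 0.032, adjusted p = 6.8e-16 and 1.7e-18), and the difference between them was 0.25 (95% interval 0.19 to 0.32).

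Of the ncBAF-specific subunits, BRD9, the bromodomain protein that marks this form, did not rise in any condition. It ranged from -0.26 in shARID1A.4 to 0.00 in shARID1B.2. BICRA and BICRAL are paralogs that exclude each other in ncBAF, and in 5 of 6 conditions they were called in opposite directions. BICRA, at 364 to 395 normalised reads in the control, was called higher in all 6 conditions, by 0.15 (shARID1A.2) to 0.44 (shARID1A/B.2.3) on the log2 scale, and in all 18 silenced libraries it was above the highest control. The smallest of these calls, in shARID1A.2, was lost without control library 1 (0.12) or without library 1 of that condition (0.13). BICRAL had 1197, 1129 and 1182 normalised reads in the control, 757, 704 and 766 in shARID1A.4 and 592, 568 and 561 in shARID1A/B.2.3. Its log2 fold changes there were -0.66 and -1.03, and between -0.23 and 0.15 in the other 4 conditions, of which shARID1A.2 (-0.18) and shARID1A/B.4.2 (-0.17) changed sign under another scaling. The BICRA share per length was 21.7% to 24.0% in the control, 37.2% to 39.7% in shARID1A.4 and 43.4% to 47.1% in shARID1A/B.2.3, with the summed level of the pair at 79.2% and 69.1% of the control mean.

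SS18 and SS18L1 are paralogs found in BAF and ncBAF. SS18 was higher where ARID1A was low and lower where ARID1B alone was low. SS18 had 1263, 1180 and 1195 normalised reads in the control. With ARID1A alone low it had 1892, 1789 and 1795 (shARID1B.2) and 2098, 2262 and 2249 (shARID1B.3). With ARID1B alone low it had 838, 791 and 836 (shARID1A/B.2.3) and 1094, 1107 and 1107 (shARID1A/B.4.2). The 6 libraries labelled shARID1B all exceeded the control and the 6 labelled shARID1A/B all fell below it. With both low the values were 1566, 1631 and 1582 (shARID1A.2) and 1404, 1324 and 1396 (shARID1A.4), also above the control.

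SS18 changed by 0.59 and 0.86 on the log2 scale under the label shARID1B, by 0.39 and 0.18 under shARID1A, and by -0.56 and -0.14 under shARID1A/B (SE 0.038, all called). With 4 groups the rise under shARID1A was not called (adjusted p = 0.071). The last of these, in shARID1A/B.4.2, was 0.05 with scaling to total reads and 0.03 by the upper quartile. Between labels, the difference of shARID1A/B from shARID1B was -1.07 for SS18 (SE 0.027, adjusted p = 3.1e-21, and 1.4e-07 with 4 groups). SS18L1 was higher in that same comparison, by 0.43 (SE 0.030, adjusted p = 2.8e-12, and 4.3e-04 with 4 groups). The SS18 share per length was 35.1% to 38.0% in the control, 55.2% to 58.8% in shARID1B.3 and 23.3% to 24.4% in shARID1A/B.2.3. The summed level of the pair stayed between 99.0% and 117.6% of the control mean. With the longest transcript as the length it ranged from 96.5% in shARID1A/B.2.3 to 127.0% in shARID1B.3.

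Among the subunits listed here as shared core, SMARCD1 and its paralogs moved apart in 2 conditions. The SMARCD proteins bridge the complex to transcription factors. SMARCD1 had 5024, 4972 and 4889 normalised reads in the control, 1889, 1881 and 1839 in shARID1A.4 and 2034, 2226 and 2083 in shARID1A/B.2.3. It was above the control in shARID1A.2 (6133, 6172 and 6281), in shARID1A/B.4.2 (7204, 6837 and 6921) and in shARID1B.2 (5331, 5389 and 5488), and below it in shARID1B.3 (3818, 3648 and 3962). No condition overlapped the control. On the log2 scale SMARCD1 changed by -1.41 and -1.23 in the first pair of conditions and by 0.32 in shARID1A.2 and 0.49 in shARID1A/B.4.2 (SE 0.031).

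SMARCD2 was higher in all 4 conditions with a low ARID1B, whether SMARCD1 was low or high. It had 4577, 4503 and 4476 normalised reads in the control, 6996, 7237 and 7082 in shARID1A.4 and 6623, 6573 and 6512 in shARID1A/B.2.3. It had 6067, 6318 and 6285 in shARID1A.2 and 6215, 6094 and 5975 in shARID1A/B.4.2. SMARCD2 changed by 0.65 and 0.54 on the log2 scale with SMARCD1 low, and 0.46 and 0.43 with SMARCD1 high (SE 0.024). With ARID1A alone low, SMARCD2 changed by 0.16 in shARID1B.2 and 0.05 in shARID1B.3 (adjusted p = 0.075).

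SMARCD3, the form of muscle and neurons and much the least abundant of the 3 per length, followed neither paralog. It had 428, 411 and 405 normalised reads in the control, 810, 851 and 828 in shARID1B.2 and 749, 771 and 791 in shARID1A/B.2.3. Its log2 fold changes were 0.9998 and 0.89 there, 0.41 in shARID1A.2 and 0.56 in shARID1A.4, and -0.18 in shARID1B.3 and -0.02 in shARID1A/B.4.2 (adjusted p = 0.71 for the last). The SMARCD1 share of the trio per length was 42.7% to 43.0% in the control, 15.1% to 15.5% in shARID1A.4 and 17.1% to 18.5% in shARID1A/B.2.3. The summed level of the trio was 105.7% and 102.8% of the control mean in these 2 conditions, and 132.0% in shARID1A.2 and 136.1% in shARID1A/B.4.2, where SMARCD1 and SMARCD2 were both higher.

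The scaffold SMARCC1 was low in 3 conditions, and its paralog SMARCC2 was not called higher in any. It had 9985, 10042 and 10303 normalised reads in the control, 6219, 6282 and 6260 in shARID1A.2, 5469, 5140 and 5187 in shARID1B.2, and 7453, 7213 and 7213 in shARID1A/B.4.2. SMARCC1 changed by -0.69, -0.94 and -0.47 on the log2 scale, and the other 3 conditions lay between -0.04 and 0.03. SMARCC2 stayed within -0.16 and 0.04 in all 6, so the summed level per length was 73.4%, 65.7% and 77.0% of the control mean in those 3 conditions. Of the core subunits confined to BAF and PBAF, SMARCB1 changed by -0.25 at most (shARID1A.2). SMARCE1, which binds DNA through an HMG box, was lower in the 4 conditions with a low ARID1B, from -0.27 in shARID1A.4 to -0.65 in shARID1A/B.4.2, and slightly higher with ARID1A alone low (0.07 and 0.10).

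In the ATPase module the catalytic subunits changed little. SMARCA4, the ATPase BRG1, was at 16837 to 17173 normalised reads in the control and within -0.03 and 0.18 on the log2 scale. Its paralog SMARCA2, the ATPase BRM, ranged from -0.48 in shARID1B.3 to 0.24 in shARID1B.2, and its share of the pair per length was 6.8% to 12.6% in all 21 libraries. ACTL6A, an actin-related subunit of proliferating cells, ranged from -0.45 in shARID1A.2 to 0.24 in shARID1B.3. ACTL6B, its counterpart in postmitotic neurons, was at 143 to 147 normalised reads in the control and rose by 0.46 and 0.83 under the label shARID1A. Under shARID1B it changed by 0.32 and 0.34, which was not called with 4 groups (adjusted p = 0.14), and under shARID1A/B by 0.11 (adjusted p = 0.35) and -0.25 (adjusted p = 0.038, lost when any 1 control library, or library 2 or 3 of that condition, was left out). It made up 5.3% to 5.5% of the pair in the control and at most 10.2% in any library.

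The BCL7 paralogs BCL7A and BCL7B moved in opposite directions in all 4 conditions with a low ARID1B. The BCL7 proteins are small subunits that bind the ATPase module. BCL7A had 2408, 2434 and 2481 normalised reads in the control. With both genes low it had 4348, 4256 and 4342 (shARID1A.2) and 5454, 5725 and 5566 (shARID1A.4). With ARID1B alone low it had 5575, 5601 and 5531 (shARID1A/B.2.3) and 4504, 4496 and 4358 (shARID1A/B.4.2). All 12 libraries were far above the control. With ARID1A alone low it had 3194, 3195 and 3194 (shARID1B.2) and 2511, 2393 and 2546 (shARID1B.3), the last overlapping the control.

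BCL7B had 1206, 1109 and 1137 normalised reads in the control. It was lower with both genes low, at 758, 793 and 734 (shARID1A.2) and 744, 722 and 727 (shARID1A.4), and with ARID1B alone low, at 705, 615 and 702 (shARID1A/B.2.3) and 567, 659 and 611 (shARID1A/B.4.2). With ARID1A alone low it had 1092, 1069 and 1093 (shARID1B.2) and 1315, 1256 and 1306 (shARID1B.3), just below and just above the control libraries. The 12 libraries with a low ARID1B thus stood apart from the other 9 for both genes, in opposite directions.

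BCL7A changed by 0.82 and 1.19 on the log2 scale under the label shARID1A and by 1.19 and 0.87 under shARID1A/B, beside 0.39 and 0.02 under shARID1B (SE 0.025, adjusted p = 0.41 for the last). The values of BCL7B were -0.59 and -0.65, -0.77 and -0.91, and -0.08 and 0.17 in the same order (SE 0.053). The difference of shARID1A/B from shARID1B was 0.82 for BCL7A (SE 0.018, adjusted p = 2.3e-22, and 8.0e-06 with 4 groups) and -0.88 for BCL7B (SE 0.037, adjusted p = 1.3e-16, and 3.0e-08 with 4 groups). For shARID1A/B from shARID1A no difference in BCL7A was detectable (0.02, 95% interval -0.02 to 0.06, adjusted p = 0.32, and 0.945 with 4 groups). That interval measures the spread between libraries and leaves out the difference between the 2 conditions of each label. The BCL7A share of the trio per length was 41.3% to 44.9% in the control. It was 64.0% to 70.1% under the label shARID1A, 66.5% to 73.0% under shARID1A/B and 40.2% to 50.2% under shARID1B. BCL7C, the third paralog, stayed within -0.23 and 0.23. The summed level of the trio was 119.5% of the control mean in shARID1A.2, 143.8% in shARID1A.4, 137.0% in shARID1A/B.2.3 and 117.2% in shARID1A/B.4.2. It was 113.5% in shARID1B.2 and 108.6% in shARID1B.3. With the longest transcript as the length these became 106.9%, 125.2%, 116.9%, 102.9%, 109.7% and 110.1% in that order.

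**Figure D3:**
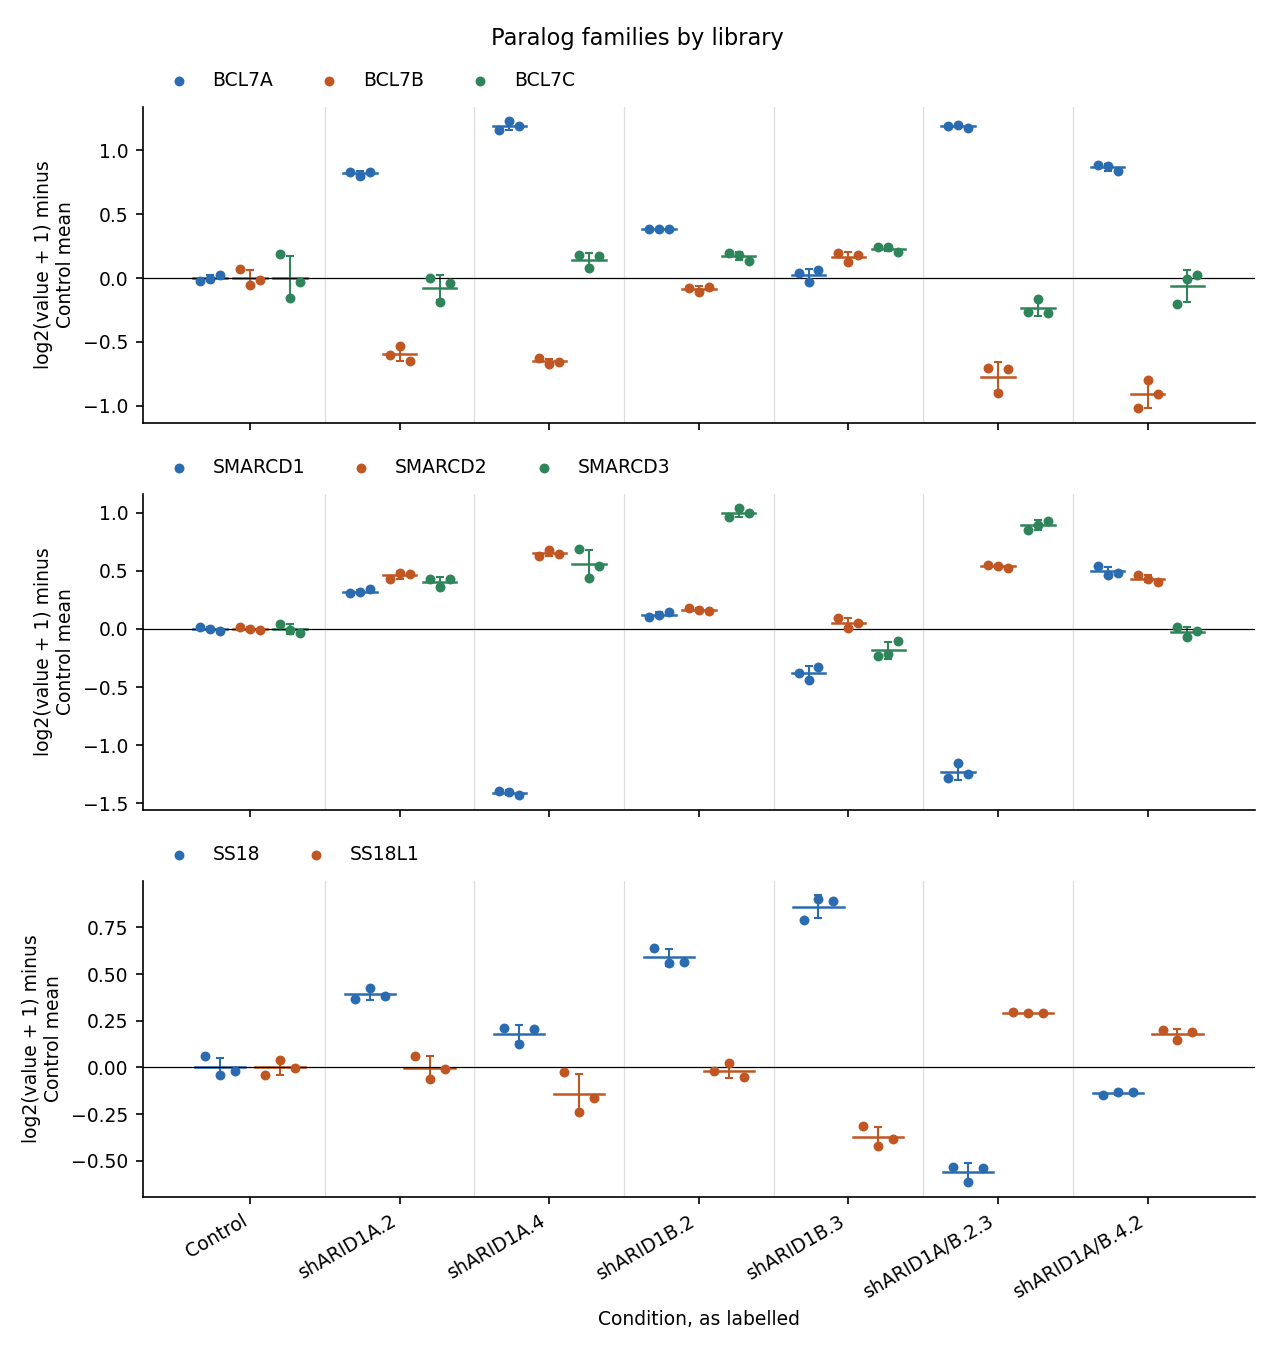
BCL7, SMARCD and SS18 paralogs by library, as log2 of the value plus 1 minus the control mean of the gene (vertical axis), in 7 labelled conditions. Points are libraries, horizontal lines are means and bars are 1 SD (n = 3). BCL7A is above and BCL7B below the control in the 12 libraries with a low ARID1B, SMARCD1 is lowest in shARID1A.4 and shARID1A/B.2.3, and SS18 is above the control in the libraries labelled shARID1B and below it in those labelled shARID1A/B.

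The promoters of BCL7A and BCL7B are shown because these paralogs moved apart. RefSeq windows of 300 bases (250 before the start of transcription and 50 after it, build GRCh38.p14) were found for 40 of the 50 genes. The window of BCL7A (chr12:122021634-122021933, plus strand) and the second window of BCL7B (chr7:73557641-73557940, minus strand) are both rich in CG, with 44 CG dinucleotides each beside a median of 14 over 35116 windows. Capitals mark the E-box CACGTG.
BCL7A: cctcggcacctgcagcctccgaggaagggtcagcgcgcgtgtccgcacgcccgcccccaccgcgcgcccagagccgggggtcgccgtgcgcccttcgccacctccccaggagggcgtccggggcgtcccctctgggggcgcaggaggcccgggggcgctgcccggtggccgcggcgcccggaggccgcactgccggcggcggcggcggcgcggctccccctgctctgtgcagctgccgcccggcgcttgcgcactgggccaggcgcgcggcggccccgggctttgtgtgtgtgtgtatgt
BCL7B: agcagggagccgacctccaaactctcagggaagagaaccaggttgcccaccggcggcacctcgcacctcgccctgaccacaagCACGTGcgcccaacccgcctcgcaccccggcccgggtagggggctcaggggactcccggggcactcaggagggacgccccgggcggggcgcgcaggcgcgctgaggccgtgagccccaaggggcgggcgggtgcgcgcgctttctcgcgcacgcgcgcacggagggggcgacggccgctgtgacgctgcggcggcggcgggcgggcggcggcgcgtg
The E-box was found once in this BCL7B window and not in that of BCL7A or in the first BCL7B window, and 7.26% of all windows hold it on either strand.

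Among the ISWI remodelers, SMARCA5 and SMARCA1 are paralogous ATPases. SMARCA5 was lower in the 4 conditions with a low ARID1B, from -0.46 to -0.57 on the log2 scale, and changed by -0.09 and 0.08 with ARID1A alone low. SMARCA1 had 2987, 2964 and 2874 normalised reads in the control and 906, 873 and 914 in shARID1A/B.4.2, a log2 fold change of -1.71 (SE 0.034, adjusted p = 4.4e-23). Its other values lay between -0.45 in shARID1A.2 and 0.07 in shARID1B.2, and its share of the pair per length was 17.4% to 17.7% in shARID1A/B.4.2 and 30.3% to 36.1% in all other libraries. BAZ1B, a partner of SMARCA5, changed by -0.77 in shARID1A.2 and -0.74 in shARID1A/B.4.2. BAZ2A, the partner in the nucleolar remodeling complex, was higher in 5 conditions, from 0.06 in shARID1B.2 to 0.61 in shARID1A.2. BAZ1A ranged from -0.56 to 0.19 and BPTF, the large subunit of NURF, from -0.36 to 0.23.

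CHD1, which spaces nucleosomes on transcribed genes, was lower in every silenced library. It had 4899, 4750 and 4759 normalised reads in the control, 2984, 3011 and 2973 in shARID1A.2 and 2858, 2759 and 2837 in shARID1A.4. It had 3303, 3292 and 3397 in shARID1B.2, 3788, 3756 and 3881 in shARID1B.3, 3188, 3303 and 3130 in shARID1A/B.2.3, and 3595, 3490 and 3413 in shARID1A/B.4.2. The lowest values were in the 6 libraries with both genes low. CHD1 changed by -0.68 and -0.77 on the log2 scale there, -0.53 and -0.33 with ARID1A low, and -0.58 and -0.46 with ARID1B low (SE 0.026). Compared with shARID1A, CHD1 was higher in shARID1B by 0.30 (SE 0.018, adjusted p = 4.0e-13, and 6.1e-04 with 4 groups) and in shARID1A/B by 0.21 (adjusted p = 6.3e-10, and 0.020 with 4 groups).

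Other CHD genes were mixed. CHD9 was lower in all 6 conditions, from -0.09 in shARID1B.3 to -0.72 in shARID1A.4. CHD3 and CHD4 are alternative ATPases of the NuRD complex, in which remodeling is joined to histone deacetylation. CHD4, at 22525 to 22812 normalised reads in the control, stayed within -0.29 and -0.05. CHD3 changed by 0.51 in shARID1A.2 and -0.56 in shARID1A.4, 0.36 in shARID1B.2 and 0.23 in shARID1B.3, and -0.64 in shARID1A/B.2.3 and -0.20 in shARID1A/B.4.2. CHD7, known for its mutation in CHARGE syndrome, ranged from -0.60 in shARID1A.2 to 0.17 in shARID1A/B.2.3, CHD2 from -0.14 to 0.25, CHD6 from -0.10 to 0.26 and CHD8 from -0.30 to 0.05. CHD5, a neuronal CHD gene that neuroblastomas often lose, was near the lower limit of these data at 19.2 to 41.6 normalised reads and was not called in any of the 6 conditions (adjusted p of 0.23 to 0.90).

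In the INO80 family, INO80 and SRCAP, which exchange histone H2A.Z, stayed within -0.23 and 0.22, and EP400, the ATPase of the TIP60 complex, was at -0.62 in shARID1A/B.4.2 and between -0.26 and 0.15 elsewhere. Of the other SNF2 genes, ATRX, which deposits histone H3.3 at repeats, was lower in the 4 conditions with a low ARID1B, from -0.40 in shARID1A.4 to -0.78 in shARID1A/B.4.2. Under the label shARID1B it was called higher in shARID1B.2 (0.10, lost without control library 2 or without library 1 or 3 of that condition) and lower in shARID1B.3 (-0.15). SMARCAD1 ranged from -0.38 to 0.36 and SMARCAL1, which restarts stalled replication forks, from -0.48 to 0.33.

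HELLS, a remodeler needed for DNA methylation in dividing cells, had 2651, 2636 and 2588 normalised reads in the control. It had 1231, 1298 and 1378 in shARID1A.2, 1573, 1563 and 1485 in shARID1B.2, and 1551, 1585 and 1531 in shARID1A/B.4.2. It had 2191, 2093 and 2195 in shARID1A.4, 2075, 2025 and 1959 in shARID1A/B.2.3, and 2671, 2708 and 2796 in shARID1B.3, where all 3 libraries were above the control. On the log2 scale the changes were -1.01, -0.77, -0.75, -0.28 and -0.38 in that order (SE 0.036), with 0.05 in shARID1B.3 (adjusted p = 0.20). HELLS belongs to a list of 43 S-phase genes, whose median log2 fold change was -1.01 in shARID1A.2, -1.10 in shARID1A.4, -0.57 in shARID1B.2, -0.13 in shARID1B.3, -1.10 in shARID1A/B.2.3 and -0.88 in shARID1A/B.4.2. In shARID1A.4 and shARID1A/B.2.3, where the median was -1.10, HELLS changed by -0.28 and -0.38, and the part of the S phase in the values of HELLS was not tested. In bulk libraries, fewer cells in S phase and less RNA per cell cannot be told apart.

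The promoter window of HELLS (chr10:94545538-94545837, plus strand) is shown for its matches to E2F sites, which are known from genes of the S phase. Capitals mark TTTGGCGC, on the opposite strand as its reverse complement, and TTTCCCGC, each found once, and 0.65% and 1.63% of all windows hold them on either strand.
HELLS: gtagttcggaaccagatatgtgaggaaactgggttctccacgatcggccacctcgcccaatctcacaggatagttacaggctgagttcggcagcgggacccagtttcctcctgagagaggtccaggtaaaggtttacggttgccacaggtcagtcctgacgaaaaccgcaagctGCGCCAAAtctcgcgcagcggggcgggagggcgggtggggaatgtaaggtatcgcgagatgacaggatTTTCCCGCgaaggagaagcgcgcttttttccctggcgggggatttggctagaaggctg
In all, 7 motifs were searched on both strands, of which CCAAT was also found in HELLS (34.6% of windows hold it) and TTCCCGCC (3.16%), TGACTCA (4.95%), GATAA (22.7%) and CACGTG were not.

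Several members were set apart by the pairing of conditions across labels. PBRM1, DPF2, BAZ1B and ATRX were lower by at least 1.5-fold in shARID1A.2 and shARID1A/B.4.2, and SMARCD1, PHF10, BICRAL and CHD9 in shARID1A.4 and shARID1A/B.2.3. ATRX and CHD9 were also lower, by less, in the other conditions with a low ARID1B. CHD3 reached 1.5-fold in shARID1A/B.2.3 and came close in shARID1A.4, and SMARCA1 reached it in shARID1A/B.4.2 alone. Between the 2 conditions of a label, 42 members were called for shARID1A (84.0%, beside 75.8% of all genes), 41 for shARID1B (82.0%, beside 66%) and 45 for shARID1A/B (90.0%, beside 74.9%). Within the label shARID1A, 9 members differed between the 2 conditions by at least 1.5-fold (18.0%, beside 42.2% of all genes), 6 did within shARID1B (12.0%, beside 28.3%) and 11 within shARID1A/B (22.0%, beside 40.7%). Across labels, 4 differed by that much between shARID1A.2 and shARID1A/B.4.2 (8.0%, beside 13.1%), and 4 between shARID1A.4 and shARID1A/B.2.3 (8.0%, beside 15.7%). These last comparisons were chosen after the values were seen. The genes past 1.5-fold in them were ARID1A, ACTL6B, SMARCA1 and CHD3 in the first pair and ARID1A, ACTL6B, DPF3 and SS18 in the second. Whether an shRNA sequence is shared by such conditions was not analysed here.

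**Figure D4:**
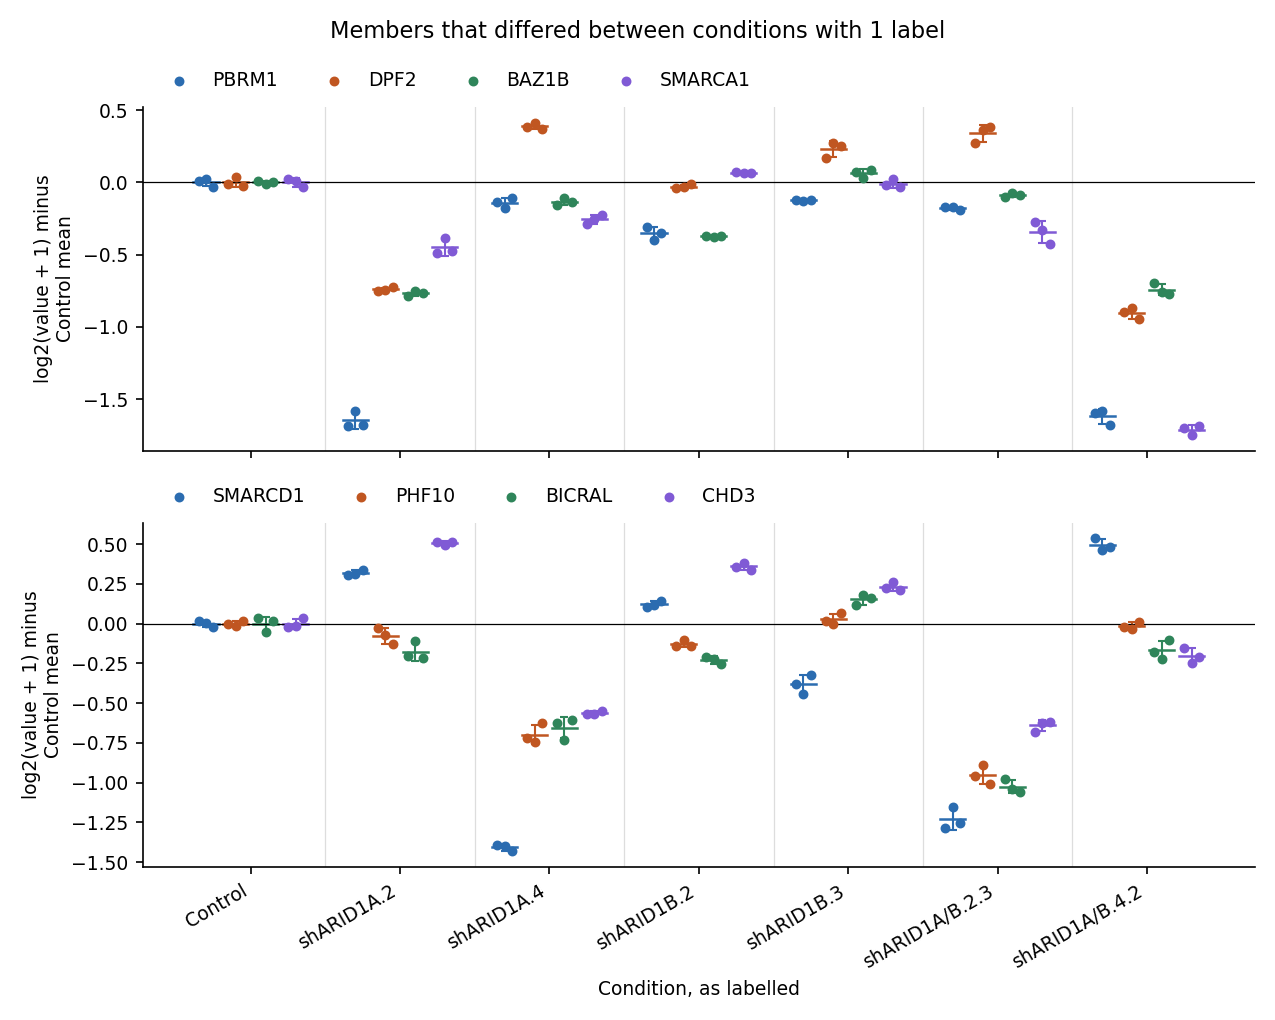
PBRM1, DPF2, BAZ1B and SMARCA1 (top) and SMARCD1, PHF10, BICRAL and CHD3 (bottom) by library, as log2 of the value plus 1 minus the control mean of the gene (vertical axis), in 7 labelled conditions. Points are libraries, horizontal lines are means and bars are 1 SD (n = 3). PBRM1 is at -1.65 and -1.62 in shARID1A.2 and shARID1A/B.4.2, and SMARCD1 at -1.41 and -1.23 in shARID1A.4 and shARID1A/B.2.3.

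The libraries of different labels were also compared directly, without the control. Between shARID1A/B and shARID1B, 46 of 50 members were called (92.0%, beside 70.2% of all genes), with 17 higher and 29 lower in shARID1A/B (beside 35.1% and 35%). Between shARID1B and shARID1A the number was 41 (82.0%, beside 67.3%), and between shARID1A/B and shARID1A it was 40 (80%, beside 59.2%). With the libraries of a label as 1 group, these counts were 22 (beside 27.9% of all genes), 14 (beside 21.4%) and 7 (beside 9.31%). The 7 members that then separated shARID1A/B from shARID1A were ARID1A, DPF1, DPF3, SS18L1 and CHD1, which were higher, and SS18 and ACTL6B, which were lower.

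A list of 58 further remodeler genes was counted by direction. It holds partners of NuRD, INO80, SRCAP, TIP60 and ISWI, other SNF2 ATPases, and the further BAF subunits ACTB, BCL11A and BCL11B. Of these, 18 were higher and 37 lower in shARID1A.2 (beside 37.9% and 38.2% of all genes), 19 and 34 in shARID1A.4, 19 and 27 in shARID1B.2, 17 and 19 in shARID1B.3, 15 and 29 in shARID1A/B.2.3, and 14 and 36 in shARID1A/B.4.2. The shares of all genes in the other conditions are those given with the members. Which direction held more calls depended on the scaling in shARID1A.2, shARID1B.2, shARID1B.3 and shARID1A/B.4.2. Total reads gave 24 higher and 23 lower, 25 and 18, 19 and 17, and 25 and 22 there, in that order. By this scaling 61.2%, 63%, 53.2% and 64.8% of all called genes were higher. In shARID1A.4 and shARID1A/B.2.3 the lower direction still held more calls, with 21 higher and 32 lower, and 20 and 28 (beside 52% and 53.9% of all called genes higher). Only CDK2AP1 and ERCC6L changed by at least 2-fold in both conditions of a label. The share of all genes that did so was not counted, so this describes the list without setting it apart. CDK2AP1, a NuRD subunit, had 10843 to 11079 normalised reads in the control. It had 3282 to 4627 under the label shARID1A and 2968 to 5395 under shARID1A/B, beside 8331 to 9551 under shARID1B. ERCC6L, a helicase of mitotic chromosomes, changed by -2.01 and -1.38 on the log2 scale under shARID1A and by -1.53 and -1.16 under shARID1A/B. In shARID1B.2 it changed by -1.61 and in shARID1B.3 by -0.09 (adjusted p = 0.21). Of the cell type markers, DBH, an enzyme of noradrenaline synthesis, changed by -1.87 and -1.71 under shARID1B. DBH was also low in shARID1A.2 (-2.20) and shARID1A/B.4.2 (-1.73), and high in shARID1A.4 (0.72) and shARID1A/B.2.3 (1.10). ALB changed by 1.83 and 2.35 under shARID1A, on 3.52, 0 and 1.03 normalised reads in the control and at most 13.0 in any library.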

How the data were processed

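RNA-Seq of 21 libraries (7 conditions, 3 libraries each) was analysed as labelled. The deposited values are a signal that the authors made by dividing the reads of each gene by the size factor of its library (0.841 to 1.29). Multiplied back, 100% of them came out as whole reads (within 0.1 read, largest deviation 0.0066). The submitters' processing notes name STAR 2.5.3a, RSEM 1.3.0, DESeq2 1.26.0 and GRCh38. The annotation and whether counting used strand are not given in the sources used here, and coordinates and lengths are from GENCODE release 29. The authors' 3 tables of their own comparisons, with fold changes and p-values, were not used.

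The log2 of the deposited value plus 1 was tested with limma 3.58.1 (trend, 7 condition means, R 4.3.3) over 18584 genes kept by the edgeR 4.0.16 filter, with Benjamini-Hochberg adjustment over all of them. In simulated reads for shARID1A.2 against the control over 18584 genes, 92 of 100 genes changed by 1.5-fold and 99 of 100 changed by 2-fold were found. All 21 pairs of replicate libraries differed beyond sampling noise (chi-square per degree of freedom 1.55 to 4.26). Figures were drawn with matplotlib 3.10.9.

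Values in every library are given for ARID1A, ARID1B and members called with at least a 1.5-fold change in the same direction in both conditions of a label. Library values of PBRM1, PHF10, DPF2, BICRAL, ARID2, SMARCA1, SMARCC1, SMARCD1, SMARCD2, SMARCD3 and HELLS, for some in part of the conditions only, were added after they were seen. Further remodeler and marker genes are named where they changed by at least 2-fold in both conditions of a label. The members and lists were chosen with earlier results of these data known. Alternatives were DESeq2 1.42.0, edgeR, other scalings, pseudocounts and filters, other groupings, a replicate block and each library left out. The values of 1 marker gene are not reported here.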

Additional observations from a re-analysis of the deposited data

Results flagged for a closer look

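These members were called in opposite directions against the control in the 2 conditions of 1 label, with a difference of at least 2-fold between the conditions that was itself called by limma. DPF2 was lower in shARID1A.2 than in shARID1A.4 by a log2 difference of -1.13 (adjusted p = 1.6e-20) and higher in shARID1A/B.2.3 than in shARID1A/B.4.2 by 1.24 (adjusted p = 2.9e-21). SMARCD1 differed by 1.73 between shARID1A.2 and shARID1A.4 (adjusted p = 3.7e-24) and by -1.72 between shARID1A/B.2.3 and shARID1A/B.4.2 (adjusted p = 4.5e-24). CHD3 was higher in shARID1A.2 than in shARID1A.4 by 1.07 (adjusted p = 4.7e-22). SMARCD3 was higher in shARID1B.2 than in shARID1B.3 by 1.18 (adjusted p = 1.3e-15). All 3 libraries of the 1 condition lay apart from all 3 of the other in each case, which follows closely from how these members were chosen and is no further support.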

How the results depend on the processing

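The number of members called in each of the 12 comparisons stayed within 1.5 times its value under every alternative but 1. With 38 to 46 of the 50 members called at the start, only a fall could have passed this limit. The number also leaves out direction, and the split into higher and lower calls depended on the scaling. Leaving out single libraries gave 34 to 46 members, and DESeq2, edgeR, TMM, the other pseudocounts and filters and the fits to 2 conditions reversed no called log2 fold change among the 300 of the 50 members in 6 conditions. With the libraries of a label as 1 group, the count was 17 for shARID1A, 8 for shARID1B and 17 for shARID1A/B against the control, and 14, 7 and 22 for shARID1B against shARID1A, shARID1A/B against shARID1A and shARID1A/B against shARID1B (beside 21.4%, 9.31% and 27.9% of all genes), since the difference between shRNAs then enters the spread. This grouping has no value for the shRNAs of 1 label.

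The replicate numbers did not pair the libraries (correlations of deviations with the control from -0.157 to 0.063). The replicate block left 298 of the 300 values with the same call, with 1 lost and 1 gained.

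Scaling to total reads and by the upper quartile brought the median log2 fold change of all genes to at most 0.20 and 0.20, from between 0.01 and 0.02. The share of higher calls among all genes rose to 61.2% and 61.8% in shARID1A.2, 63% and 61.2% in shARID1B.2 and 64.8% and 63% in shARID1A/B.4.2. Small values that had been called changed sign with the scaling, 16 and 15 of the 300, and sign changes of uncalled values were not counted. Among the values given above, total reads gave PHF10 0.10 in shARID1A.2 and 0.01 in shARID1B.2, and in shARID1A/B.4.2 BICRAL 0.02, SS18 0.05, SMARCC2 0.02 and CHD2 0.05. The upper quartile gave PHF10 0.11 and BICRAL 0.00 in shARID1A.2, CHD4 0.01 in shARID1B.3, and SS18 0.03 and CHD2 0.02 in shARID1A/B.4.2.

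With 4 groups by label, which average 2 conditions, 25 of the 300 values were called in the fit of 7 conditions and changed sign. Sign changes of values without such a call were not counted. The 4-group values of the called ones given above were, in shARID1A, DPF2 -0.17, SMARCD1 -0.54, BPTF -0.02 and CHD3 -0.03. In shARID1B they were ARID1B -0.07, BICRAL -0.04, SMARCD1 -0.13, SMARCD3 0.41, SMARCA2 -0.12, ACTL6A -0.07, SMARCA5 -0.00, BAZ1B -0.15, CHD6 0.08 and ATRX -0.02. In shARID1A/B they were DPF2 -0.28, DPF3 0.04, SMARCD1 -0.37, BAZ1A -0.13, CHD7 -0.07 and CHD8 -0.05.

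With the longest transcript in place of all exons, the control share became 57.8% for ARID1A (75.3%), 9.96% for SMARCA2 (10.3%), 60.3% for SMARCC1 (71.8%), 42.5% for SMARCD1 (42.8%), 25.0% for DPF1 (20.6%), 95.6% for ACTL6A (94.6%), 47.6% for SS18 (36.4%), 30.9% for BCL7A (43.5%), 27.2% for BICRA (23.0%) and 31.2% for SMARCA1 (32.1%), with the main value in parentheses. Fold changes do not depend on length. CHD5 is the 1 member whose reads limit what can be seen.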
